A study of Rattus norvegicus with 12 samples.

Results

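The annexins are a family of calcium-dependent membrane-binding proteins. The 8 genes described here, Anxa1, Anxa2, Anxa3, Anxa4, Anxa5, Anxa6, Anxa7 and Anxa11, were taken by symbol, and every probe set that the array annotation assigns to exactly 1 of them was used. That gave 14 probe sets of 31099 on the array, and all 8 genes were among the 12157 genes tested. The arrays read RNA of left hemispheres from 12 rats (Sprague-Dawley, male, 8 weeks old). Blood flow through the middle cerebral artery was blocked and then restored in 7 of them (MCAO, a stroke model made by surgery), while 5 had a sham operation (Sham). The labels name no other treatment or genotype, do not state which side was occluded, and date tissue collection in both groups to 24 h after reperfusion. Each rat gave 1 array.

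Annexins share a core of repeated domains that binds acidic phospholipids when calcium rises, and differ in a short or long N-terminal part that binds partner proteins. Many of those partners are small calcium-binding proteins of the S100 family. Annexins take part in sealing torn plasma membranes, in vesicle traffic and in clotting control at cell surfaces. Anxa1 protein is known for limiting inflammation, and Anxa5 protein for binding the phosphatidylserine that dying cells expose.

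The median log2 signal per array was 7.23 to 7.27, and the number of arrays limits the precision. The labelled tissue carried neuronal transcripts in every array, with the synaptic gene Snap25 averaging 13.06 ± 0.11 in the MCAO rats (SD, n = 7) and 13.31 ± 0.03 in the Sham rats (SD, n = 5). MCAO 2 and MCAO 4 stood apart, with median correlations of 0.947 and 0.953 with the other MCAO arrays, against 0.980 to 0.986 for the remaining 5. The 3' minus 5' difference of the beta-actin control probe sets, a measure of RNA integrity, was 1.27 to 1.47 in MCAO and 1.40 to 1.46 in Sham, with the displaced control rows of MCAO 6 realigned.

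Annexin transcripts were higher after the occlusion for 5 of the 8 genes (Anxa1, Anxa2, Anxa3, Anxa5 and Anxa7), and 0 were called lower. The calls rest on an adjusted p under 0.05 in limma, adjusted over all 12157 genes, of which 44.3% were called, 22.2% higher and 22.1% lower. All 8 annexins were among the 6340 genes whose values varied between arrays (SD over the 12 arrays of at least 0.01), and among those 69.3% were called, 35.2% higher and 34.1% lower. The 5 of 8 annexins called are thus near that background, while their calls were all in 1 direction. In 4 annexins every MCAO value exceeded every Sham value, as in 17.9% of the varying genes, and 0 annexins were separated the other way, as were 16.2%. A log2 change of at least 1 was reached by 2 annexins (Anxa2 and Anxa1), and by 1.81% of all genes tested and 3.47% of the varying ones. The median log2 change of the 8 annexins was 0.41, against 0.02 for the varying genes. Without MCAO 2 and MCAO 4, 6 annexins were called higher (Anxa4 in addition) and 1 (Anxa11) lower. In RNA from a whole hemisphere, a change in the number of cells of a type and a change in RNA per cell cannot be told apart.

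**Figure D1:**
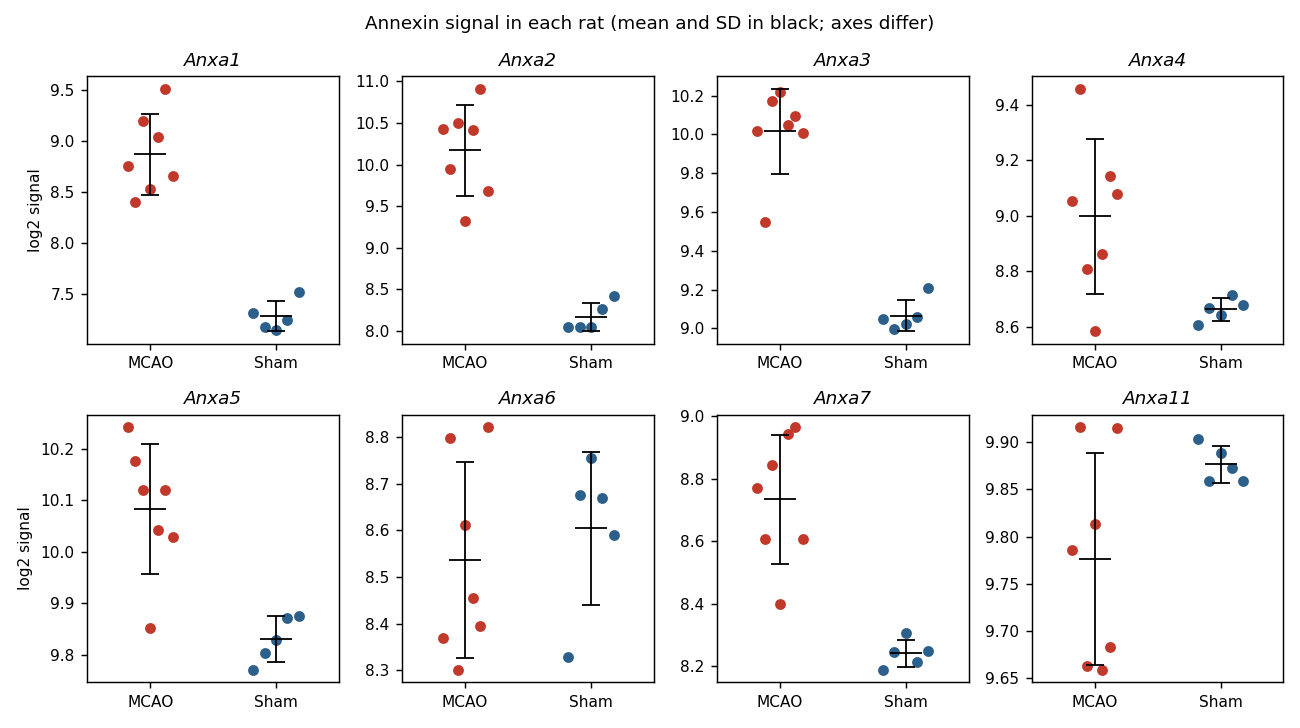
Log2 signal (y axis, scaled separately for each gene) of the 8 annexins in each MCAO rat (red, left) and each Sham rat (blue, right), with the mean and SD in black. The groups do not overlap for Anxa1, Anxa2, Anxa3 and Anxa7, and they overlap for Anxa4, Anxa5, Anxa6 and Anxa11.

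Anxa2 and Anxa1, whose proteins bind S100A10 and S100A11 through the N-terminal part, changed most. Their promoter windows are shown because these 2 genes rose most within the family. Each window holds 250 bases before and 50 after the annotated start, 5' to 3' on the gene's strand (RefSeq, build GRCr8), with capitals marking a TATA box (TATAAA) or an AP-1 motif (TGANTCA). The Anxa2 window is chr8:78986002-78986301 on the plus strand, and the Anxa1 window is chr1:227303683-227303982 on the minus strand.
Anxa2: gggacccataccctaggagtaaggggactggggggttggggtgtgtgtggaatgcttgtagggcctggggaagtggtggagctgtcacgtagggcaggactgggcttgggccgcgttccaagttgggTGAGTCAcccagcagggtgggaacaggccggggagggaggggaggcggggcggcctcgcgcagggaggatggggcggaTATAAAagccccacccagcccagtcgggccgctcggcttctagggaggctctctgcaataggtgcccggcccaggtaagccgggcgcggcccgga
Anxa1: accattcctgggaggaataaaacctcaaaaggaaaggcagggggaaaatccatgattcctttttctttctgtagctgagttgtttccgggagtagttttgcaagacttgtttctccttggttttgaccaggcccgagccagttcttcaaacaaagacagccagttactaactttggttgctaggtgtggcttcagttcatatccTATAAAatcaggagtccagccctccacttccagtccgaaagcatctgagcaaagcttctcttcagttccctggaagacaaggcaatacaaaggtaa
Of the members, 7 had a promoter window (Anxa1, Anxa2, Anxa3, Anxa4, Anxa5, Anxa7 and Anxa11). The motif TATAAA, searched on both strands, was in those of Anxa1 and Anxa2 and in 14.2% of all 33469 rat promoter windows. TGANTCA was in the Anxa2 window alone among the 7, and in 7.33% of all windows. An NF-kB motif (GGG, 3 bases of any kind and TTCC, either strand) was found in Anxa4 as GGGACTTTCC and in Anxa5 as GGGCGTTTCC, against 5.37% of all windows. The STAT motif TTCNNNGAA and a glucocorticoid receptor motif (GNACA and TGTNC with 3 bases of any kind between them), present in 8.87% and 0.439% of all windows, matched 0 of the 7. No matches overlapped each other, and a match is a description of letters, not a binding site. The Anxa1 window had 45.0% G and C bases, below the median of 51.7% over all windows, whereas that of Anxa2 had 68.0%.

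Anxa2 (Entrez Gene 56611), the cell surface cofactor that brings plasminogen and its activator together, had the largest change in the family. Its log2 signal in the 7 MCAO rats ran from 9.32 through a median of 10.42 to 10.91, and the Sham rats had 8.05, 8.05, 8.05, 8.26 and 8.43. The lowest MCAO value, that of MCAO 4, lay 0.90 log2 units above the highest Sham value. Anxa2 averaged 10.17 ± 0.55 in the MCAO rats (SD, n = 7) and 8.17 ± 0.17 in the Sham rats (SD, n = 5), 4.02-fold apart (log2 change 2.01 ± 0.25, SE; limma adjusted p = 0.000862). In the order from the largest rise to the largest fall, Anxa2 ranked 33 of the 6340 varying genes. A second Anxa2 probe set, 1392250_at, read 6.24 in all arrays, was near-constant (SD 0.00014) and stayed below the filter on low values.

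Anxa1 (Entrez Gene 25380), a glucocorticoid-regulated inhibitor of leukocyte recruitment that acts through formyl peptide receptors, rose 3.02-fold. MCAO values ran from 8.40 through a median of 8.75 to 9.52, and Sham values were 7.31, 7.17, 7.14, 7.24 and 7.52. The groups were separated by 0.88 log2 units. Anxa1 averaged 8.87 ± 0.40 in the MCAO rats (SD, n = 7) and 7.28 ± 0.15 in the Sham rats (SD, n = 5; log2 change 1.59 ± 0.19, SE; limma adjusted p = 0.000562). It ranked 72 in the order from the largest rise to the largest fall.

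Anxa3 (Entrez Gene 25291), an annexin found in neutrophils and, in rodent brain, in microglia, rose 1.93-fold. MCAO values ran from 9.55 through a median of 10.05 to 10.22, and Sham values were 9.05, 8.999, 9.02, 9.06 and 9.21. The MCAO rats lay close together except for MCAO 2, the lowest, which was still above every Sham rat. The log2 change was 0.95 ± 0.10 (SE; limma adjusted p = 0.000395). With its 4 probe sets averaged, near-constant 1380751_at included, the change was 0.54 (adjusted p = 0.000351).

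Anxa5 (Entrez Gene 25673), the phosphatidylserine-binding anticoagulant annexin, had MCAO values from 9.85 through a median of 10.12 to 10.24. The Sham rats had 9.77, 9.80, 9.83, 9.87 and 9.88. In 6 of 7 MCAO rats Anxa5 was above the highest Sham value, and MCAO 4 lay inside the Sham range. It was 1.19-fold higher (log2 change 0.25 ± 0.06, SE; limma adjusted p = 0.00669). With the replicate numbers of the titles as a block, Anxa5 was not called (limma adjusted p = 0.0851).

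Anxa4 (Entrez Gene 79124), known from epithelia and from membrane repair, was read by 2 varying probe sets that fell on opposite sides of the threshold. The brighter one, 1389305_at, represents the gene. Its MCAO values ran from 8.58 through a median of 9.05 to 9.46, against Sham values of 8.61, 8.67, 8.64, 8.72 and 8.68. Again 6 of 7 MCAO rats were above all Sham rats, and MCAO 4 was below all of them. The log2 change of 0.34 ± 0.13 (SE) did not pass (limma adjusted p = 0.0510), but it passed without MCAO 2 (adjusted p = 0.0455), without MCAO 3 (0.0496) and without MCAO 4 (0.0103). The other probe set, 1368908_at, averaged 8.15 ± 0.24 in the MCAO rats (SD, n = 7) and 7.75 ± 0.06 in the Sham rats (SD, n = 5). It passed in the fit over all single-gene probe sets (log2 change 0.40 ± 0.11, SE; limma adjusted p = 0.0148), but not with the replicate numbers as a block (limma adjusted p = 0.117).

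Anxa6 (Entrez Gene 79125), an annexin with a duplicated core that acts on endosomes and cholesterol traffic, gave no call. Its MCAO values ran from 8.30 through a median of 8.46 to 8.82, and Sham values were 8.33, 8.68, 8.76, 8.67 and 8.59. The groups overlapped over nearly their whole ranges, and Sham 1 lay well below the other Sham rats. The log2 change was -0.07 ± 0.11 (SE; limma adjusted p = 0.671). With arrays weighted by quality it was -0.24 and passed (adjusted p = 0.0216).

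Of the annexins with long N-terminal parts, Anxa7 rose and Anxa11 gave no call. Anxa7 (Entrez Gene 155423), also called synexin, promotes membrane fusion in secretory cells. Its MCAO values ran from 8.40 through a median of 8.77 to 8.96, against 8.19, 8.25, 8.31, 8.21 and 8.25 in Sham. Every MCAO rat lay above every Sham rat, with a gap of 0.09 log2 units. Anxa7 was 1.41-fold higher (log2 change 0.49 ± 0.09, SE; limma adjusted p = 0.00299). Its second probe set, 1368142_at, was near-constant at 7.77 in all arrays. The mean of both had a log2 change of 0.25 (adjusted p = 0.00294).

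Anxa11 (Entrez Gene 290527), which tethers RNA granules to lysosomes and is mutated in some motor neuron disease, had a log2 change of -0.10 ± 0.05 (SE) that did not pass (limma adjusted p = 0.134). MCAO values ran from 9.66 through a median of 9.79 to 9.92, and Sham values were 9.90, 9.86, 9.89, 9.87 and 9.86. The MCAO rats were spread on both sides of a narrow Sham range, 5 below it and 2 (MCAO 2 and MCAO 7) above it. Without MCAO 2 the change was -0.12 and passed (adjusted p = 0.0498), as it did with array weights (-0.17, adjusted p = 0.00115).

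Across probe sets, 11 of the 14 varied and 8 of these 11 were called higher and 0 lower, against 36.9% and 30.7% of all varying probe sets (22.7% of all tested probe sets were called higher). The 3 near-constant ones (1392250_at, 1380751_at and 1368142_at) differed between groups by at most 0.00022 log2 units, and such values cannot show a change. The varying probe sets of Anxa3 moved the same way but by different amounts, with log2 changes of 0.95 ± 0.10 for 1367974_at, 0.71 ± 0.08 for 1395313_s_at and 0.50 ± 0.07 for 1367975_at (SE). All 3 separated the groups completely. All 8 gene-level probe sets were above the filter on low values in all 12 arrays, so none was tested through 1 group alone. Of the annexins outside the 8, Anxa8 was near-constant (6.82 in MCAO and 6.81 in Sham), both probe sets of Anxa9 stayed below the filter, and Anxa10 and Anxa13 were not analysed here.

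**Figure D2:**
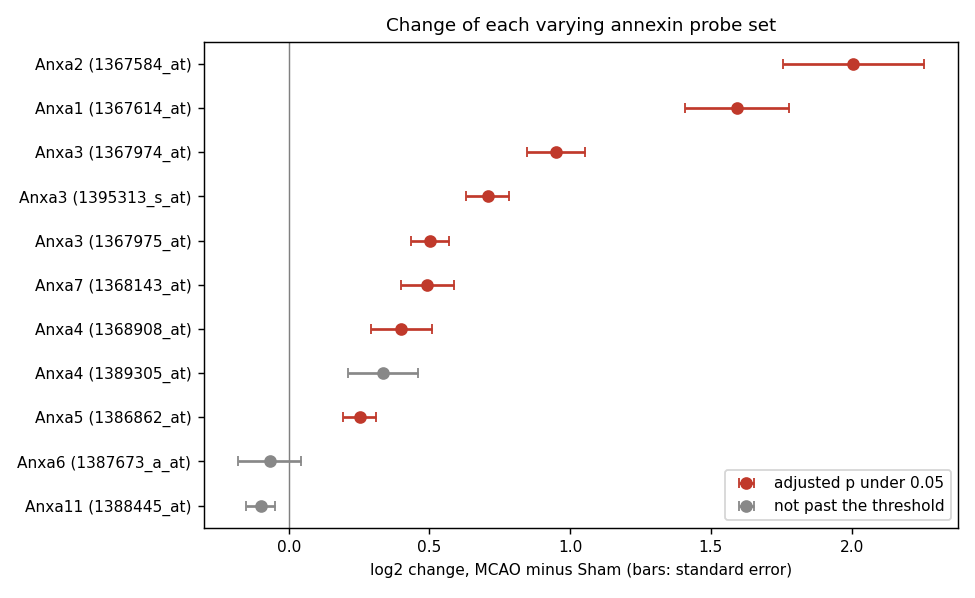
Log2 change (x axis, MCAO minus Sham, bars are standard errors) of the 11 varying annexin probe sets, ordered by signed change. The 8 in red passed the threshold and run from 0.25 (Anxa5) to 2.01 (Anxa2), and the 3 in grey belong to Anxa4, Anxa6 and Anxa11.

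Set side by side within each array, neighbours in the order of change differed most at the top of the family. The log2 ratio of Anxa2 over Anxa1 was 0.41 ± 0.12 larger in MCAO than in Sham, that of Anxa1 over Anxa3 was 0.64 ± 0.14 larger, and that of Anxa3 over Anxa7 was 0.46 ± 0.11 larger (SE, no test, since the order was set by the changes themselves). Further down the differences were close to their errors: 0.16 ± 0.12 for Anxa7 over Anxa4, 0.08 ± 0.08 for Anxa4 over Anxa5 and 0.03 ± 0.09 for Anxa6 over Anxa11. Between Anxa5 and Anxa6 the difference was 0.32 ± 0.12. In none of these 7 ratios were the groups fully separated.

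The MCAO rats did not rank alike for all members. MCAO 6 had the highest value for Anxa1, Anxa2 and Anxa7, with deviations from the Sham mean of 2.24, 2.75 and 0.72. MCAO 4 had the lowest value for Anxa2, Anxa4, Anxa5 and Anxa7, yet the highest for Anxa3, where it deviated by 1.15. MCAO 2 had the lowest values for Anxa1 (1.12) and Anxa3 (0.48) and the highest for Anxa4 (0.80). Anxa6 and Anxa11 were highest in MCAO 2 and MCAO 7 and lowest in MCAO 3 (Anxa6) and MCAO 5 (Anxa11). The SD was larger in MCAO than in Sham for all 8 annexins, as for 89.4% of the varying genes.

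**Figure D3:**
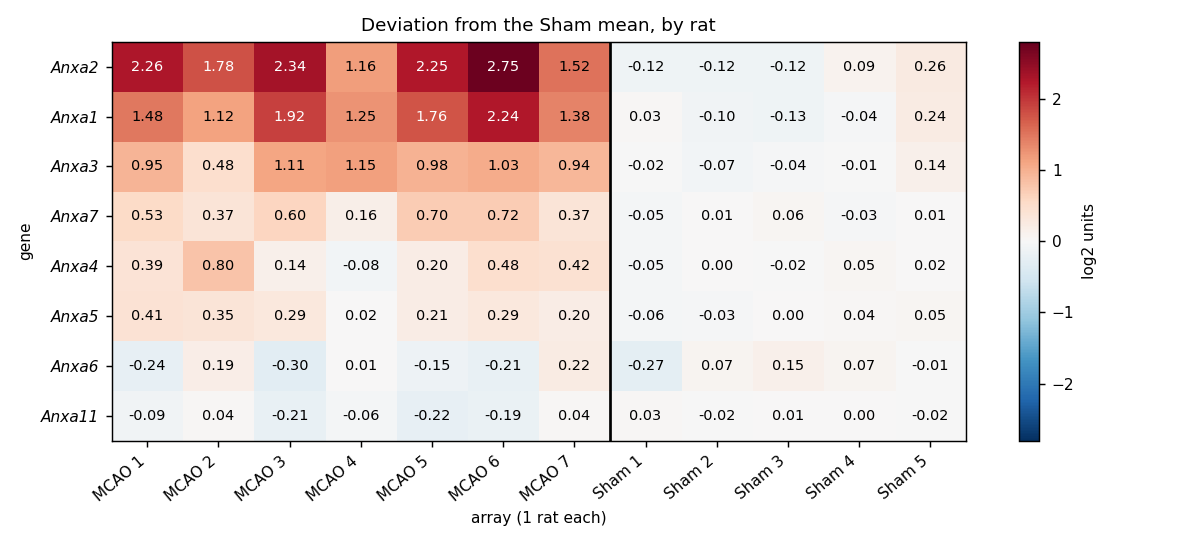
Log2 deviation of each annexin (rows, ordered by change) from its own Sham mean in each of the 12 rats (columns, MCAO left of the black line, Sham right of it), with red above and blue below. Anxa2 and Anxa1 deviate by 1.12 to 2.75 in all MCAO rats, MCAO 4 deviates least for Anxa2, Anxa5 and Anxa7, and Anxa6 and Anxa11 deviate in both directions.

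The genes whose pattern was nearest to each called annexin were found by the root mean square difference, over the 12 arrays, between deviations from the Sham means. Left out of this search were the annexins themselves, near-constant genes, and symbols beginning with LOC, RGD or AABR. Nearest to Anxa1 were Arpc1b, a subunit of an actin-branching complex (0.12 log2 units), and Tyrobp, a signalling adaptor of myeloid cells (0.13). The interferon-induced membrane protein genes Ifitm1 (0.15) and Ifitm3 (0.17) were nearest to Anxa2. For Anxa3 they were Gpr84, a fatty acid receptor of myeloid cells (0.11), and Ly86 (0.13). Anxa5 was closest to the mitochondrial protease gene Lonp1 (0.05) and to Arrdc4 (0.05), and Anxa7 to the actin-binding gene Cotl1 (0.06) and to Hacd1, an enzyme of fatty acid elongation (0.06).

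Genes of proteins linked to annexins as binding partners or in membrane repair were higher for 9 of 13 varying members (69.2%) and lower for 0, against 35.2% and 34.1% of all varying genes, with a median log2 change of 0.48. Of the 20 genes listed, 17 were tested, and 4 of those were near-constant, among them the repair gene Dysf. S100a6, whose protein binds Anxa11 and Anxa2, had MCAO values from 8.87 through 9.38 to 10.25 and Sham values of 7.36, 7.16, 7.34, 7.48 and 7.71. The groups were far apart, with a log2 change of 2.10 ± 0.25 (SE; limma adjusted p = 0.00071). The transglutaminase gene Tgm2 rose by 1.48 ± 0.19 (adjusted p = 0.000864). The 4 varying members without a call were Cacybp, S100a1, S100b and Sri, and Sri had the lowest adjusted p of these (0.0526). The lower calls in the list numbered 1 without MCAO 4 and also after each of 3 rescalings (quantile normalization, or arrays aligned at the median or at the 75th percentile).

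Partner transcripts of 4 annexins were set beside them in 5 pairs, picked after their values were seen. The log2 ratios of Anxa2 over S100a10 and of Anxa1 over S100a11 differed between the groups by less than their standard errors, and those of the 3 pairs with Anxa11 or Anxa7 by more. S100a10, the partner of Anxa2 in a heterotetramer, had MCAO values from 10.27 through 11.32 to 11.76 and Sham values of 9.27, 9.14, 9.16, 9.23 and 9.45. Its log2 change of 1.89 ± 0.27 (SE; limma adjusted p = 0.00112) stood beside 2.01 for Anxa2, and the log2 ratio of Anxa2 over S100a10 differed between the groups by 0.12 ± 0.13 (SE, MCAO minus Sham). That ratio ran from -1.26 to -0.32 in MCAO and from -1.22 to -0.97 in Sham. S100a11, the partner of Anxa1, rose by 1.65 ± 0.24 (adjusted p = 0.0013), and the ratio of Anxa1 over S100a11 differed by -0.06 ± 0.08. By contrast, the log2 ratio of Anxa11 over its partner S100a6 was lower, at 0.26 in MCAO and 2.47 in Sham (difference -2.20 ± 0.26, SE). S100a6 also binds Anxa2, a pair not set up here, and their log2 changes were 2.10 and 2.01. Relative to the calcium-binding partner Pdcd6, which rose by 0.47 ± 0.07 (adjusted p = 0.00157), Anxa11 was lower too, with a log2 ratio of -0.44 in MCAO and 0.13 in Sham. Sorcin (Sri), a partner of Anxa7, had a change of -0.19 ± 0.07 that did not pass (adjusted p = 0.0526). The log2 ratio of Anxa7 over Sri was -1.76 in MCAO and -2.44 in Sham (difference 0.68 ± 0.12, SE), and every MCAO value (-2.39 to -1.49) lay above every Sham value (-2.52 to -2.39), the nearest ones by a narrow margin.

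**Figure D4:**
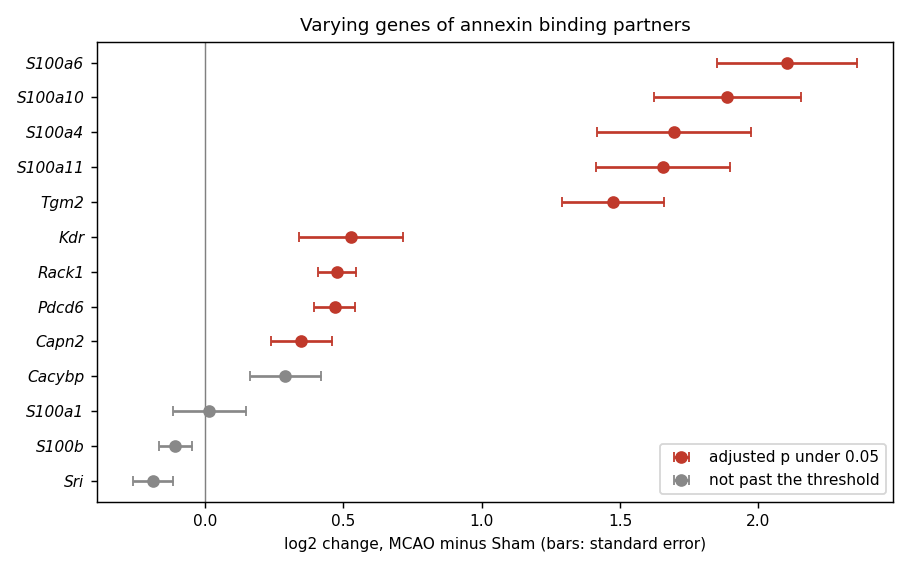
Log2 change (x axis, MCAO minus Sham, bars are standard errors) of the 13 varying genes linked to annexins as partners or in membrane repair. S100a6, S100a10, S100a4, S100a11 and Tgm2 lie between 1.48 and 2.10, and the 4 grey genes did not pass the threshold.

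Around Anxa2, a list of genes of plasmin generation at cell surfaces, inhibitors included, had 4 of 7 varying members higher (57.1%) and 2 lower. Of all varying genes 35.2% were called higher and 34.1% lower. The tissue plasminogen activator gene Plat rose by 0.81 ± 0.14 (SE; limma adjusted p = 0.00237), with 9.29 to 10.14 in MCAO and 9.02 to 9.28 in Sham. Plau (1.20, adjusted p = 0.0066) and Plaur (0.90, adjusted p = 0.00242) rose too, with Sham means of 6.51 and 6.29, below the filter on low values (6.61). The 2 lower were the protease inhibitor genes Serpine2, which fell by 0.19 (adjusted p = 0.000545), and Serpini1 (-0.59, adjusted p = 0.00474). Plg, the gene of plasminogen itself, was near-constant. Around Anxa1, the list of its receptors and of lipid mediators of inflammation and its resolution had 4 varying members of 15 listed. These were Alox5ap, Pla2g4a, Ptgs2 and Ptges, genes of lipid mediator synthesis and not of receptors. All 4 rose, against 35.2% of all varying genes. The receptor genes listed were near-constant (Cmklr1 and Ltb4r) or not analysed here. Pla2g4a, the cytosolic phospholipase that releases arachidonic acid, rose by 0.82 ± 0.11 (adjusted p = 0.00105), and Ptges, a prostaglandin E synthase gene, by 1.82 ± 0.30 (adjusted p = 0.00185). Ptges averaged 6.38 in Sham, below the filter on low values (6.61), so its rise was partly fixed in advance. The formyl peptide receptor genes Fpr1 and Fpr2 were not analysed here. Genes of glucocorticoid signalling and response, a group to which Anxa1 itself belongs, were split, with 3 higher (27.3%) and 2 lower of 11 and a median of -0.02. Both counts lie below the shares of all varying genes. They include the receptor gene Nr3c1 among the lower and the steroid enzyme gene Hsd11b1 among the higher, so they are not counts of induced genes alone. The metallothionein gene Mt2A rose by 1.70 ± 0.16 (adjusted p = 0.000244), and Nr3c1, the glucocorticoid receptor gene, fell by 0.30 (adjusted p = 0.00202).

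Genes of phosphatidylserine exposure and uptake, the membrane signal that Anxa5 binds, had 4 higher and 4 lower of 13 varying members (30.8% each way, near the 35.2% and 34.1% of all varying genes; median log2 change -0.11). Pros1, a bridging ligand between phosphatidylserine and its receptors, rose by 0.82 ± 0.12 (SE; limma adjusted p = 0.00153), and the scramblase gene Ano6 rose by 0.99 ± 0.17 (adjusted p = 0.00202). Plscr1, also among the higher, averaged 6.31 in Sham, below the filter on low values (6.61), so its rise was partly fixed in advance. The 4 that fell were Mfge8, another bridging ligand (-0.39 ± 0.08, adjusted p = 0.00488), the flippase gene Atp11a (-0.44 ± 0.12, adjusted p = 0.0130), and the receptor genes Tyro3 (-0.44 ± 0.13, adjusted p = 0.0190) and Adgrb1 (-0.38 ± 0.12, adjusted p = 0.0294). Other genes of calcium-dependent membrane-binding proteins had 2 higher and 4 lower of 12 varying members (median -0.19), and 7 were lower without MCAO 2. Prkcb, a protein kinase C gene, fell by 0.42 (adjusted p = 0.00279) and the neuronal copine gene Cpne6 by 0.58 (adjusted p = 0.0031), while another copine gene, Cpne3, rose by 0.54 ± 0.11 (adjusted p = 0.00389).

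Markers of several cell types moved with the annexins, and their part in the annexin changes was not tested. All 8 varying reactive astrocyte markers rose, where 35.2% of all varying genes were called higher. Their list scores (mean log2 deviation from the Sham means) were 1.48 to 2.75 in MCAO and -0.07 to 0.10 in Sham. Gfap, the astrocyte filament gene, rose by 1.91 ± 0.12 (SE; limma adjusted p = 5.2e-05) and Lcn2 by 2.52 ± 0.23 (adjusted p = 0.000219). MCAO 6 had the highest reactive astrocyte score and MCAO 4 the lowest, as for Anxa2 and Anxa7. All 7 varying neutrophil and monocyte markers, of 14 listed and 8 tested, rose, against the same 35.2% of all varying genes. Their scores were 0.58 to 1.67 in MCAO and -0.08 to 0.07 in Sham, again highest in MCAO 6 and, as for Anxa1 and Anxa3, lowest in MCAO 2. S100a8, S100a9 and Il1r2 averaged 6.48, 6.27 and 6.22 in Sham, below the filter on low values (6.61). They passed it mainly through the MCAO arrays, so their rise was partly fixed in advance. With that filter at the 50th percentile 3 members of the list were called higher. Among the 7, Plac8 rose by 1.40 ± 0.17 (adjusted p = 0.00083) and the lysozyme gene Lyz2 by 1.21 ± 0.21 (adjusted p = 0.00216).

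Microglia markers were split, with 2 of 6 higher (33.3%) and 2 lower, near the 35.2% and 34.1% of all varying genes. Their scores were -0.45 to 0.19 in MCAO and -0.11 to 0.18 in Sham. Itgam rose by 0.92 ± 0.10 (SE; limma adjusted p = 0.000495), and P2ry12, a receptor of resting microglia, fell by 1.26 (adjusted p = 0.00146). Itgam averaged 6.40 in Sham, below the filter on low values (6.61), so its rise was partly fixed in advance. Of 10 neuron markers 6 fell and 0 rose, with scores of -0.44 to -0.09 in MCAO, all below those of -0.06 to 0.07 in Sham (Stmn2 fell by 0.28, adjusted p = 0.00132, and Snap25 by 0.25, adjusted p = 0.00407). Of 8 varying astrocyte markers 6 fell and 1 rose (Aldh1l1 fell by 0.78, adjusted p = 0.00176, Gjb6 fell by 0.96, adjusted p = 0.00662, and Glul rose by 0.08, adjusted p = 0.0111, with 0 higher calls after quantile normalization). Lymphocyte markers gave no varying member, with Cd8a at 6.73 and Nkg7 at 6.66 in both groups.

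Of all varying genes 35.2% were called higher and 34.1% lower, and the counts in the remaining small lists are near or below those shares. Endothelial markers had 4 higher (44.4%) and 1 lower of 9, with Esam up by 0.59 ± 0.12 (SE; limma adjusted p = 0.00439) and Slco1a4 down (-0.92 ± 0.18, adjusted p = 0.00368). There were 2 higher calls without Sham 1, Sham 2 or Sham 4, and 2 lower calls without Sham 1. Pericyte and smooth muscle markers had 2 higher and 0 lower of 5 (1 lower without MCAO 4 or Sham 1 and with quantile normalization). Their scores were 0.14 to 0.56 in MCAO, just clear of -0.21 to 0.13 in Sham, and both Des (0.78 ± 0.09, adjusted p = 0.000507) and Tagln (1.56 ± 0.36, adjusted p = 0.00645) rose. The other varying members, Myh11 (-0.22), Rgs5 (-0.18) and Abcc9 (-0.08), had negative changes without a call, and the list median was -0.08. The score difference thus rests on Tagln and Des. Oligodendrocyte markers had 0 higher and 2 lower of 6, namely Ermn (-0.43 ± 0.06, adjusted p = 0.000989) and Cnp (-0.26 ± 0.09, adjusted p = 0.0337). Leaving out any of MCAO 1, MCAO 3, MCAO 5, MCAO 6, MCAO 7, Sham 2, Sham 3 and Sham 4 left 1 lower call, and without MCAO 1 there was 1 higher call. Meningeal fibroblast markers had 1 higher (Dcn, 0.61 ± 0.17, adjusted p = 0.0147) and 1 lower (Slc6a13, -0.39 ± 0.11, adjusted p = 0.0195) of 10. Without MCAO 1, MCAO 2, MCAO 4 or MCAO 7 the higher calls numbered 2 or 3, and without Sham 1 or Sham 3 the lower calls numbered 2 and 0. Ependymal and choroid plexus markers had 1 higher of 4 (Aqp1, 0.46 ± 0.12, adjusted p = 0.0112), and 2 without MCAO 2, while Foxj1 was near-constant at 7.37.

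**Figure D5:**
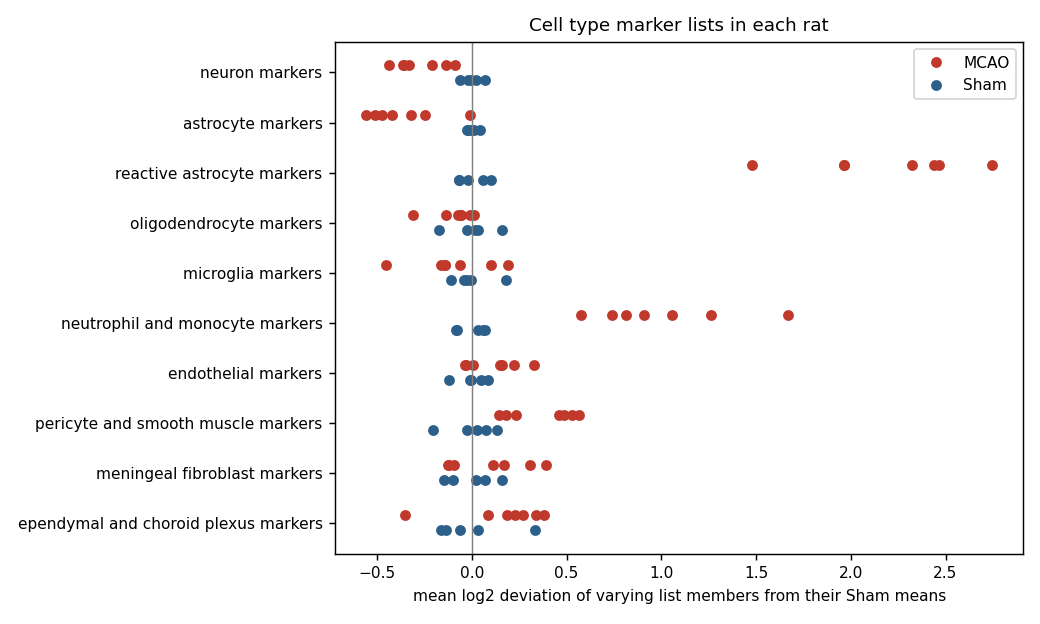
List score (x axis, mean log2 deviation of varying members from their Sham means) of each cell type marker list in every MCAO rat (red, upper points) and Sham rat (blue, lower points). Reactive astrocyte scores (1.48 to 2.75) and neutrophil and monocyte scores (0.58 to 1.67) in MCAO lie above all Sham scores. So do the pericyte and smooth muscle scores (0.14 to 0.56), which rest on Tagln and Des (median change of the list -0.08). Neuron scores (-0.44 to -0.09) lie below, and microglia scores overlap.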

How the data were processed

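Of the 12 arrays, the authors deposited 1 value for each of 31099 probe sets. These deposited values were read as log2 because of their range, the log base being unstated. The input was 100 ng of TRIzol-extracted total RNA, copied into biotin-labelled cRNA per the labels' protocols. How background was corrected and arrays were normalized is not given in the sources used here. In the deposited values 62.5% of probe sets other than controls were near-constant (SD under 0.01), and those were tested but are not counted among rises and falls.

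Array medians spanned 0.05, so values were used as deposited. Of all probe sets, 20832 were assigned to 1 gene and 436 to several, which were left out. A probe set was kept where 5 or more arrays exceeded 6.61, the 25th percentile of all values (17250 kept), and each gene was represented by its brightest probe set. A gene low in Sham could pass through the MCAO arrays, which favours rises. Among varying list genes, Sham means were below 6.61 for Lcn2, Serpina3n, Ptges, Plau, Plaur, Plscr1, Itgam, S100a8, S100a9 and Il1r2. The test was limma (version 3.58.1, R 4.3.3; lmFit and eBayes with trend, two-sided, Benjamini-Hochberg, threshold 0.05), with no replicate block. A second fit took all 17250 probe sets. The procedure was tested on simulated data.

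The members, the 18 gene lists (226 genes, 176 tested) and the tests were chosen with earlier results of these data known. Named genes were all annexins, the 2 members of each list with the largest limma statistic, the strongest member in the minority direction, and the 2 genes nearest to each called annexin. Others in the text were picked after their values were seen. The replicate numbers in the titles are not said to pair the rats. Deviations of same-numbered arrays correlated at 0.43, 0.65, -0.41, 0.01 and 0.32, which does not settle whether they do. The series design gives 7 MCAO and 5 Sham rats, 1 for each array, and the labels give no batch. Alternatives were other scalings, filters, probe set choices and eBayes settings, array weights, the block, leaving out each array, and leaving out MCAO 2 with MCAO 4, which was chosen after the data were seen.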

Additional observations from a re-analysis of the deposited data

Results flagged for a closer look

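Of 22 groups of annexin values tested (11 varying probe sets in MCAO and in Sham), 2 held a rat far from the others, where chance gives about 1 in 20. Both belong to Anxa3 probe set 1367974_at. MCAO 2 had 9.55, below the other MCAO rats at 10.01 to 10.22, and Sham 5 had 9.21, above the other Sham rats at 8.999 to 9.06. The log2 change of Anxa3 was 1.03 without MCAO 2 and 0.98 without Sham 5.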

How the results depend on the processing

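The calls of Anxa1, Anxa2, Anxa3 and Anxa7 as higher kept their direction and side of the threshold under all 26 alternatives for each gene, and no annexin changed direction under any. Anxa5 was not called with the replicate block (log2 change 0.26, limma adjusted p = 0.0851). With that block, which uses replicates 1 to 5 of each group, 4 annexin genes and 6 probe sets were called higher, the Anxa4 probe set 1368908_at (adjusted p = 0.117) no longer among them. Anxa4 was called under 10 alternatives, with adjusted p from 0.00323 to 0.215 over all. The count of annexins called lower moved from 0 to 2 genes and 2 probe sets with array weights, and to 1 gene and 1 probe set without MCAO 2 and MCAO 4. Leaving out single arrays gave 5 to 6 genes higher and 0 to 1 lower, and 8 to 9 probe sets higher and 0 lower (limma). Array weights raised the lower calls among varying genes of phosphatidylserine exposure and uptake to 7, of other membrane-binding proteins to 8 and of binding partners to 2. With the replicate block the first of these lists had 1 lower call and the astrocyte markers 1. The causes were not tested. Whether probe sets at a near-constant value measure their transcripts is unknown, and the number of arrays limits small changes such as those of Anxa6 and Anxa11.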

Other observations

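The 57 control probe sets of MCAO 6 were displaced by 12 positions relative to the other arrays: 40 near-constant controls matched the other arrays (within 0.05) after realignment, and 0 did before. The beta-actin value of that array was taken after realignment.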
